A study of Mus musculus with 15 samples.

Results

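The B cell and plasma cell genes Cd79a, Cd79b, Ms4a1, Pax5, Jchain and Mzb1 were chosen by their gene symbols, and all 6 were found among the 27174 genes of the deposited table. They were followed in brain microvessels of adult WT BL6/57 mice with glioblastoma cells transplanted into the brain, collected 21 days later, and of sham mice. Triple therapy microvessels came from the tumour region of mice given aflibercept, AMG386 and anti-PD1. Dual therapy microvessels came from the tumour region of mice given aflibercept and AMG386 without anti-PD1. IgG tumour microvessels came from the tumour region after control IgG, and contralateral IgG microvessels came from the tumour-free region of the other side after control IgG. Sham microvessels came from sham-operated mice, whose region is labelled healthy and for which the labels give no other agent. Aflibercept is a decoy receptor that binds VEGF, AMG386 is a peptibody that neutralises angiopoietins, and anti-PD1 is an antibody that blocks an inhibitory receptor of T cells. Each of the 5 groups had 3 libraries, and each library pooled 3 mice. Which glioblastoma line was transplanted is not given here.

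B cells recognise antigen through a membrane immunoglobulin that signals through the paired chains encoded by Cd79a and Cd79b. Pax5 is the transcription factor that commits a progenitor to the B lineage and holds it there, and Ms4a1 encodes the B cell surface protein CD20. When a B cell becomes a plasma cell it shuts down Pax5 and Ms4a1 and secretes antibody: Jchain encodes the chain that joins IgM and IgA into polymers, and Mzb1 encodes a chaperone of the endoplasmic reticulum that helps immunoglobulin assembly. In the healthy brain, B cells are scarce in the tissue itself and are found mainly in the meninges and the choroid plexus.

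RefSeq promoters of GRCm38.p6, running from 250 bases before to 50 bases after the start site, were at hand for 3 of the 6 genes. They are shown because Cd79a, which was not called in untreated tumours, can then be set beside Pax5 and Jchain, which rose. Capitals mark a match to a motif of ETS factors, and every strand shown is that of the gene. Cd79a is at chr7:24897247-24897546 on the plus strand, Pax5 at chr4:44710645-44710944 on the minus strand and Jchain at chr5:88527848-88528147 on the minus strand.
Cd79a: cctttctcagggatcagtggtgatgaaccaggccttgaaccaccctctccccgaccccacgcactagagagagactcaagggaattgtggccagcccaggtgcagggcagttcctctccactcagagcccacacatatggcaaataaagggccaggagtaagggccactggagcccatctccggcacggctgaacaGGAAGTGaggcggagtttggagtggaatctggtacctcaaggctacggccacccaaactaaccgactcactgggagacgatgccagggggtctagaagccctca
Pax5: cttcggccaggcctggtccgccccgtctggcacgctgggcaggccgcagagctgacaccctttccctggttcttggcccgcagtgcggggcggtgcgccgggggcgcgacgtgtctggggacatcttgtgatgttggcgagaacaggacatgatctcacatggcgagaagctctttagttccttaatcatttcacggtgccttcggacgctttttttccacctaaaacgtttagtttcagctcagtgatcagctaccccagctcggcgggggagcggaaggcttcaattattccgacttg
Jchain: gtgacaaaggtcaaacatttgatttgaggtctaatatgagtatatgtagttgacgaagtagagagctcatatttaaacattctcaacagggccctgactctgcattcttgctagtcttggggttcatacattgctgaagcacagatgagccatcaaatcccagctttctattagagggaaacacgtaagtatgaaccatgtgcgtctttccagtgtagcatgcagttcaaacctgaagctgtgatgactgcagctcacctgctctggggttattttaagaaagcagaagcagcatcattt

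Motifs that B lineage factors are known to bind were searched on both strands. The ETS letters GGAAGTG occurred in the Cd79a promoter alone of the 3, starting 54 bases before the start site (offset -54), and in 11% of 32851 RefSeq mouse promoters of the same length. The octamer ATGCAAAT, bound by Oct factors, was in none of the 3 and in 1.74% of all promoters. The EBF1 motif, TCCC and GGGA with any 2 bases between them, was also in none of the 3, and in 0.9% of all promoters. Only these exact letters were searched, so variant sites were missed, and no motif of Pax5 was searched. A promoter without a match may still be bound by the factor. GC content was 58.3% for Cd79a, 59.0% for Pax5 and 42.3% for Jchain, with a median of 52.7% over all promoters. The RefSeq start sites do not coincide with the ends of the deposited gene models.

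The deposited values are normalised scores, whole numbers that were made from read counts and are not counts themselves. A score fits reads multiplied by a factor of the library, and 1 read was worth between 0.656 and 1.86 score units. This was estimated from how often each low whole number occurred in a library. On that estimate the libraries held between 6368770 and 18318084 reads. All 6 genes were low: over the 15 libraries together about 418 reads fell on Jchain, 390 on Pax5, 304 on Cd79a, 269 on Ms4a1, 99 on Cd79b and 35 on Mzb1. A gene was tested if it reached a score of 10 in at least 3 libraries, which kept 19668 genes and 5 of the 6 followed here, all but Mzb1. Differences are given as log2 fold changes of score + 1 with their standard error (SE), from limma fitted to all 15 libraries, and a gene is called at a Benjamini-Hochberg adjusted p below 0.05 over all genes tested. The log2(score + 1) scale understates changes of low genes. Nothing in the labels ties pools of different groups to the same mice, so n = 3 counts pools.

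Endothelial markers were abundant in every library. The scores of 12 of them, such as Pecam1 and Cldn5, summed to 48279 to 61338 in triple therapy and 55102 to 64917 in dual therapy libraries. The sums were 44431 to 56433 in IgG tumour, 54907 to 69757 in contralateral IgG and 56088 to 58098 in sham libraries. Without whole tissue to compare, these sums do not measure purity. Ttr, a choroid plexus gene, alone had 80756 in contralateral IgG replicate 1 and 76214 in triple therapy replicate 3. Mitochondrial ribosomal RNA took 22.4%, 33.2% and 21.5% of the score in IgG tumour libraries, above every library of the other groups (9.6% to 17.4%), and replicate 2 was the highest. On the second principal component (8.9% of the variance) dual therapy replicate 2 lay at 66.4, with the next library at 38.7, and IgG tumour replicate 1 lay at -51.8, with the next at -23.3. Values without the pair of dual therapy replicate 2 and IgG tumour replicate 2 are given where they change a result, and IgG tumour replicate 1, like every library, was also left out singly. Replicates of a group correlated at 0.941 to 0.977.

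Of the 5 genes tested, 4 differed somewhere among the 5 groups by limma's F-test, with adjusted p of 8.47e-05 for Pax5, 5.82e-04 for Jchain, 8.51e-04 for Ms4a1 and 0.00186 for Cd79b. The same test called 43.5% of all genes. Cd79a was not called (adjusted p = 0.202).

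**Figure D1:**
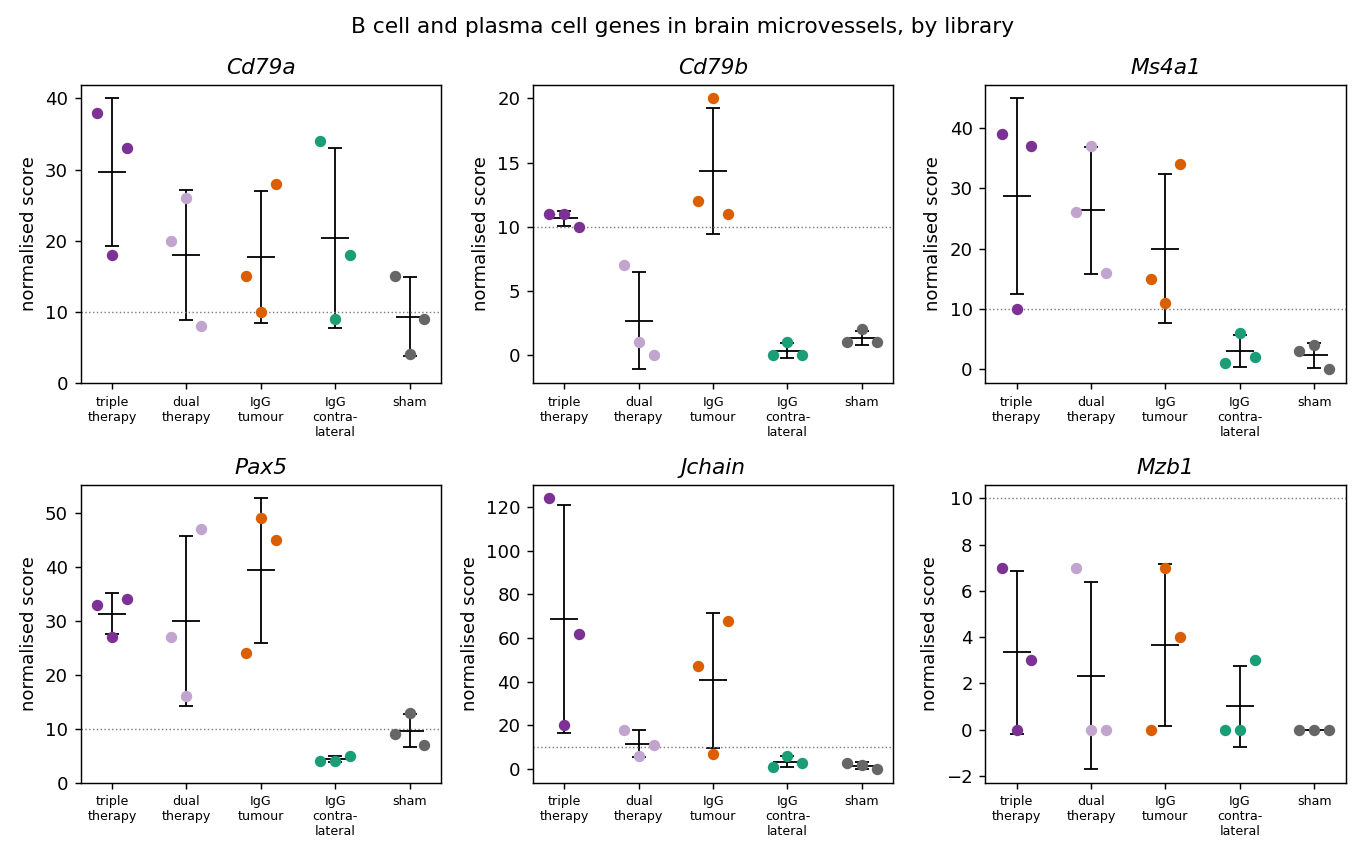
Normalised score of each gene in every library (points), with the group mean (long bar) and SD (error bars, n = 3 pools); the dotted line is the score of 10 used to filter genes. Pax5 and Ms4a1 were at 10 or above in every tumour-region library and Cd79a overlapped between all groups except triple therapy and sham.

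In untreated tumours 4 of the 5 genes tested rose. Pax5, Ms4a1, Cd79b and Jchain were higher in IgG tumour than in contralateral IgG microvessels, by log2 fold changes between 2.44 and 3.56, and they were also higher than in sham microvessels, by 1.89 to 3.70. Cd79a, the partner of Cd79b in the receptor, was called in neither comparison. Of all genes tested, 42.5% were called between IgG tumour and contralateral IgG, 21.1% as higher, and 46.6% between IgG tumour and sham, 23.3% as higher, so a rise in itself was common. The 4 genes passed the filter through tumour-region libraries. Cd79b, Ms4a1 and Jchain reached a score of 10 in no control library, and Pax5 only in sham replicate 2 (13). Genes that pass in this way could hardly be called lower, so the count of 4 of 5 is only a description. The libraries of all 4 genes lay above both controls without overlap, as did those of 25.3% of all genes against contralateral IgG and 27.6% against sham. In such bulk libraries more B cells, more RNA per B cell, expression by other cells and a shift in the mix of cells cannot be told apart. The share of mitochondrial ribosomal RNA was also higher in all 3 IgG tumour libraries than in either control, and its part in these differences was not tested. Without the pair of dual therapy replicate 2 and IgG tumour replicate 2, 4 genes were again called in each comparison, as they were without IgG tumour replicate 1.

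Cd79b, the signalling chain Ig-beta of the B cell receptor (ENSMUSG00000040592, GRCm38 chr11:106311341-106314762, minus strand), had scores of 12, 20 and 11 in the 3 IgG tumour libraries. It had 0, 1 and 0 in the contralateral IgG libraries and 1, 2 and 1 in the sham libraries. All 3 IgG tumour libraries thus stood above both controls, and the controls were at the level of about 1 read per library or none. The log2 fold change was 3.56 ± 0.75 against contralateral IgG (adjusted p = 8.61e-04) and 2.70 ± 0.75 against sham (adjusted p = 0.00626). As estimated reads, 43 in the IgG tumour libraries stood against 1 in the contralateral IgG libraries, a ratio per unit of depth of 40.83 with a 95% exact interval of 6.95 to 1649.74. Against sham the reads were 43 and 3, a ratio of 13.27 (4.25 to 66.86), and these intervals cover counting error only.

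Cd79a, the partner chain Ig-alpha (ENSMUSG00000003379, chr7:24897381-24902197, plus strand), had scores of 15, 10 and 28 in the IgG tumour libraries. Its scores were 34, 9 and 18 in the contralateral IgG libraries and 15, 4 and 9 in the sham libraries. The highest of these 9 values was in a contralateral library, and the groups overlapped throughout. The log2 fold change was -0.13 ± 0.58 for IgG tumour against contralateral IgG (adjusted p = 0.882) and 0.89 ± 0.58 against sham (adjusted p = 0.222). The sign against contralateral IgG turned to 0.20 without that pair of libraries, and with per-library quality weights the difference from sham was called (1.35, adjusted p = 0.0435). Per kilobase of exon, the mean score of Cd79a was 12.13 in IgG tumour, 13.96 in contralateral IgG and 6.41 in sham libraries, while Cd79b had 10.02, 0.23 and 0.93 in the same order of groups. In both controls the mean per length was higher for Cd79a than for Cd79b; in IgG tumour the order of the chains differed between libraries, and this difference between genes was not tested.

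Ms4a1, which encodes CD20 on B cells before the plasma cell stage (ENSMUSG00000024673, chr19:11249675-11266241, minus strand), had scores of 15, 11 and 34 in IgG tumour libraries. It had 1, 6 and 2 in contralateral IgG libraries and 3, 4 and 0 in sham libraries, with no overlap with either. It rose by 2.44 ± 0.71 against contralateral IgG (adjusted p = 0.00964) and by 2.80 ± 0.71 against sham (adjusted p = 0.00335). The call against contralateral IgG was lost without IgG tumour replicate 3 (adjusted p = 0.0552) and with voom on approximate reads (adjusted p = 0.0694).

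Pax5, the B lineage transcription factor (ENSMUSG00000014030, chr4:44524757-44710487, minus strand), had scores of 24, 49 and 45 in IgG tumour libraries. The contralateral IgG libraries had 4, 4 and 5 and the sham libraries 9, 13 and 7. Pax5 rose by 2.86 ± 0.44 against contralateral IgG (adjusted p = 4.19e-05) and by 1.89 ± 0.44 against sham (adjusted p = 0.00162). It had the smallest adjusted p of the 5 genes tested against contralateral IgG, and its libraries overlapped with neither control. In GENCODE M21 its exons share 636 bases with 5730488B01Rik and 125 with Gm12462, both on the opposite strand. How the counting used strand is not stated, so a part of the Pax5 score from these genes cannot be told apart; Gm12462 itself had a score of 6 at most.

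Jchain, the joining chain of secreted IgM and IgA (ENSMUSG00000067149, chr5:88520512-88527891, minus strand), had scores of 47, 7 and 68 in IgG tumour libraries. It had 1, 6 and 3 in contralateral IgG and 3, 2 and 0 in sham libraries. IgG tumour replicate 2, at 7, was only just above the highest control library, while the other IgG tumour libraries were far above. The rise was 2.96 ± 0.82 against contralateral IgG (adjusted p = 0.00685) and 3.70 ± 0.82 against sham (adjusted p = 0.00113). With voom on approximate reads neither was called (adjusted p = 0.143 and 0.101).

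Mzb1, the immunoglobulin chaperone (ENSMUSG00000024353, chr18:35647266-35649367, minus strand), was too low to test. It had scores of 0, 7 and 4 in IgG tumour, 0, 0 and 3 in contralateral IgG, and 0 in all 3 sham libraries, where 3 reads would have given scores of 2.43, 5.58 and 3.33. About 12 reads in IgG tumour stood against 3 in contralateral IgG, a ratio per unit of depth of 3.8 with a 95% exact counting interval of 1.03 to 20.97. This interval covers counting error only, not the spread between pools. About 8 of the 12 reads fell in IgG tumour replicate 2. The exons of Mzb1 share 695 bases with SPATA24 on the same strand in GENCODE M21, so reads of the 2 genes could have been mixed. With so few reads no difference of Mzb1 between groups was tested.

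**Figure D2:**
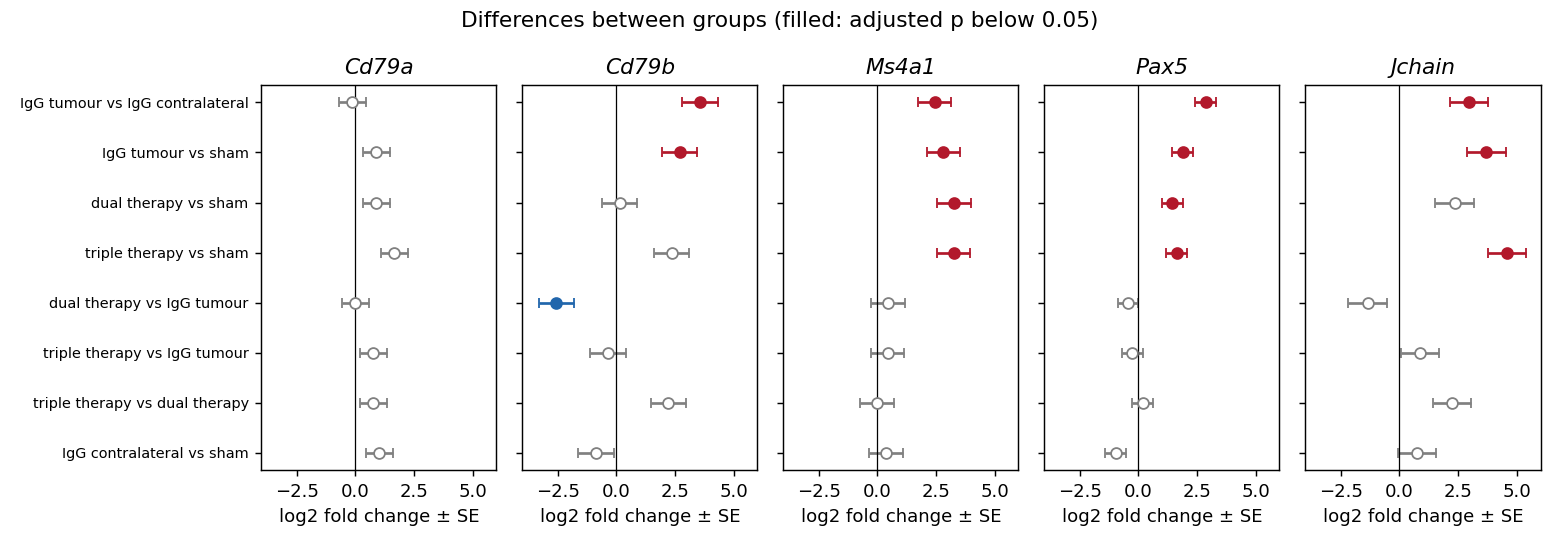
Log2 fold change of score + 1 (points) with its SE (bars) for the 5 genes tested in 8 comparisons; filled points have an adjusted p below 0.05, red for higher and blue for lower in the group named first. Filled red points appear for Cd79b, Ms4a1, Pax5 and Jchain in both IgG tumour comparisons, and the only filled blue point is Cd79b in dual therapy against IgG tumour.

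The tumour-free side was compared with sham vessels. None of the 5 genes tested was called between contralateral IgG and sham, a comparison in which limma called 0.432% of all genes (85 genes, with 2341 at an unadjusted p below 0.05). Voom also called none of them. Pax5 was lower in every contralateral IgG library (4, 4 and 5) than in any sham library (9, 13 and 7), with a log2 fold change of -0.97 ± 0.44, an unadjusted p of 0.04 and an adjusted p of 0.392; 12.5% of all genes had such non-overlapping lower libraries. Cd79a differed by 1.02 ± 0.58 (adjusted p = 0.529), with 34, 9 and 18 in contralateral IgG against 15, 4 and 9 in sham libraries, which overlap.

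After dual therapy the receptor chain Cd79b was lower than in untreated tumours, and the other genes were not called. Cd79b had scores of 7, 1 and 0 in dual therapy libraries, against 12, 20 and 11 in IgG tumour libraries, and the groups did not overlap (lower without overlap in 15.8% of all genes). The log2 fold change was -2.56 ± 0.75 (adjusted p = 0.0198), so 1 of the 5 genes tested was called, where limma called 22.3% of all genes and 10.2% as lower. The call rested on few libraries: it was lost without dual therapy replicate 2 (adjusted p = 0.0557), dual therapy replicate 3 (0.086), IgG tumour replicate 1 (0.0542) or IgG tumour replicate 2 (0.0661), and when dual therapy replicate 2 and IgG tumour replicate 2 were both left out (-2.14, adjusted p = 0.125).

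Ms4a1 in dual therapy had scores of 26, 37 and 16, against 15, 11 and 34 in IgG tumour libraries, which overlap (0.46 ± 0.71, adjusted p = 0.689). Pax5 had 27, 16 and 47 in dual therapy, against 24, 49 and 45 in IgG tumour libraries (-0.44 ± 0.44, adjusted p = 0.507). Cd79a had 20, 26 and 8 in dual therapy, against 15, 10 and 28 in IgG tumour libraries, a log2 fold change of 0.00 ± 0.58. For these 3 genes no difference beyond the spread between pools was found, which does not show that there was none. Jchain had 18, 6 and 11 in dual therapy, against 47, 7 and 68 in IgG tumour libraries (-1.35 ± 0.82, adjusted p = 0.257). Without IgG tumour replicate 2, the low one, Jchain was called lower (-2.30, adjusted p = 0.0393). Mzb1 was listed at 7, 0 and 0 in dual therapy, against 0, 7 and 4 in IgG tumour libraries.

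After triple therapy none of the 5 genes tested was called against IgG tumour, a comparison that shares its IgG tumour libraries with the one above and in which 32.2% of all genes were called, 17.2% as higher and 15% as lower. None of the 5 had an unadjusted p below 0.05, which 41.9% of all genes had, and voom also called none. Cd79b had scores of 11, 11 and 10 in triple therapy, against 12, 20 and 11 in IgG tumour libraries (-0.35 ± 0.75, adjusted p = 0.76). Jchain had 124, 20 and 62 in triple therapy, against 47, 7 and 68 in IgG tumour libraries (0.88 ± 0.82, adjusted p = 0.441), and the difference was -0.07 without IgG tumour replicate 2. Jchain spread widely within both groups, from 20 to 124 in triple therapy and from 7 to 68 in IgG tumour libraries. Cd79a had 38, 18 and 33 in triple therapy, against 15, 10 and 28 in IgG tumour libraries (0.77 ± 0.58, adjusted p = 0.335). Ms4a1 had 39, 10 and 37 in triple therapy, against 15, 11 and 34 in IgG tumour libraries (0.44 ± 0.71, adjusted p = 0.676). Pax5 had 33, 27 and 34 in triple therapy, against 24, 49 and 45 in IgG tumour libraries (-0.26 ± 0.44, adjusted p = 0.685). Mzb1 was listed at 7, 0 and 3 in triple therapy, against 0, 7 and 4 in IgG tumour libraries.

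The effect of adding anti-PD1 to dual therapy was read from triple against dual therapy. None of the 5 genes tested was called by limma, where 0.869% of all genes were, and 2 of the 5 had an unadjusted p below 0.05, as had 14.5% of all genes; voom called none. Those 2, Cd79b and Jchain, were higher in every triple therapy library than in any dual therapy library, as were 9.27% of all genes. Cd79b had 11, 11 and 10 in triple therapy, against 7, 1 and 0 in dual therapy libraries (2.21 ± 0.75, unadjusted p = 0.00836, adjusted p = 0.169), and it was called without dual therapy replicate 1 (3.04, adjusted p = 0.0495). Jchain had 124, 20 and 62 in triple therapy, against 18, 6 and 11 in dual therapy libraries (2.23 ± 0.82, unadjusted p = 0.0137, adjusted p = 0.204). The lowest triple therapy library exceeded the highest dual therapy library by 20 against 18. Cd79a differed by 0.77 ± 0.58 (adjusted p = 0.581), Pax5 by 0.18 ± 0.44 (adjusted p = 0.891) and Ms4a1 by -0.02 ± 0.71 (adjusted p = 0.994).

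Set against sham vessels, treated tumours also had higher levels of some of these genes. In triple therapy 3 of the 5 genes were called, all higher, where 9.73% of all genes were called and 5.49% as higher: Jchain (4.58 ± 0.82, adjusted p = 0.00105), Ms4a1 (3.24 ± 0.71, adjusted p = 0.00549) and Pax5 (1.63 ± 0.44, adjusted p = 0.0212). In dual therapy 2 of the 5 were called, both higher, where 18.5% of all genes were called and 8.8% as higher: Ms4a1 (3.26 ± 0.71, adjusted p = 0.00275) and Pax5 (1.45 ± 0.44, adjusted p = 0.0255). Both comparisons use the same sham libraries. Jchain, Ms4a1 and Pax5 passed the filter through tumour-region libraries and could hardly be called lower than sham, so these counts are only descriptions. With voom, neither Jchain (adjusted p = 0.116) nor Ms4a1 (0.0684) was called in triple therapy. Jchain just missed the threshold in dual therapy (2.35 ± 0.82, adjusted p = 0.0528) and passed it without IgG tumour replicate 2 (0.0209) or triple therapy replicate 2 (0.0455), which enter only through the shared estimate of the spread. Cd79b just missed it in triple therapy (2.35 ± 0.75, adjusted p = 0.0551), with about 43 reads against 3 in sham, a ratio of 9.45 (95% exact counting interval 3.02 to 47.6), and passed it without dual therapy replicate 1 (0.0283) or 3 (0.0284). In dual therapy Cd79b was at the sham level within its error (0.14 ± 0.75, adjusted p = 0.932), with 9 reads against 3, a ratio of 2.35 (0.59 to 13.51).

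Cd79a was above sham in every triple therapy library, 38, 18 and 33 against 15, 4 and 9, which 14.6% of all genes tested shared, but was not called (1.66 ± 0.58, adjusted p = 0.0851). It was called when only the triple therapy and sham libraries were fitted (adjusted p = 0.0273) and with quality weights (0.0156). The Pax5 calls rested on few libraries: in dual therapy against sham the call was lost without dual therapy replicate 1 (adjusted p = 0.0579) or 3 (0.129) and without sham replicate 1 (0.0659) or 3 (0.103). In triple therapy against sham it was lost without triple therapy replicate 1 (0.0741) or 3 (0.0855) and without sham replicate 1 (0.0602) or 3 (0.104).

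Across the groups the mean score per kilobase of exon ordered the genes differently. In triple therapy Jchain was highest at 27.28 per kilobase, followed by Cd79a at 20.36, Cd79b at 7.45, Ms4a1 at 4.63, Pax5 at 3.54 and Mzb1 at 2.74. In dual therapy Cd79a led at 12.35, ahead of Jchain at 4.64, Ms4a1 at 4.26, Pax5 at 3.39, Mzb1 at 1.92 and Cd79b at 1.86. In IgG tumour libraries Jchain was at 16.16, Pax5 at 4.44, Ms4a1 at 3.23 and Mzb1 at 3.02. In sham libraries Cd79a stood alone, with 6.41 against at most 1.09, the value of Pax5. Summed over the 6 genes, scores were 86, 179 and 252 in the triple therapy libraries from lowest to highest, 82, 86 and 105 in dual therapy, 104, 113 and 190 in IgG tumour, 26, 31 and 40 in contralateral IgG, and 17, 25 and 31 in sham.

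Over the 15 libraries, the log2 scores of Ms4a1 and Jchain had a Pearson correlation of 0.864, Pax5 and Ms4a1 of 0.772, Pax5 and Jchain of 0.721, and Pax5 and Cd79b of 0.711. Cd79a was correlated with Pax5 at 0.133 and with Cd79b at 0.241. All of these share libraries and the difference between tumour and control vessels, and they are given as descriptions. Among 13447 other tested genes with an established symbol and a mean score of at least 20, Pax5 was most like Fmnl1 (0.94), Foxp3 (0.933), which marks regulatory T cells, and Ctsz (0.926). Jchain was most like Ltbp2 (0.948) and the complement genes C1qa (0.891) and C1qc (0.869). Ms4a1 was most like Lpxn (0.89), Zc3hav1 (0.885) and the T cell surface gene Cd6 (0.884). Cd79b was most like Nup62 (0.928), Scly (0.909) and Rlbp1 (0.899), and Cd79a most like Slc31a1 (0.836), Slc24a5 (0.814) and Sil1 (0.8).

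Other genes of the lineage give the setting of these 6. Of all genes tested, 23.3% rose and 23.3% fell in IgG tumour against sham, and 21.1% rose against contralateral IgG. Low genes of the lists, such as Spib and Glycam1, passed the filter through tumour-region libraries alone and could hardly be called lower there. Of 10 other B cell surface genes tested, 8 rose and 0 fell in IgG tumour against sham, and 5 rose against contralateral IgG. The median log2 fold change against sham was 2.22, beside 0.03 for all genes. Cd22, an inhibitory B cell co-receptor, had scores of 35, 56 and 57 in IgG tumour, against 7, 9 and 4 in sham libraries (2.74 ± 0.46, adjusted p = 9.10e-05). Cxcr5, the receptor that draws B cells into follicles, had 8, 17 and 36 in IgG tumour, against 2, 0 and 2 in sham libraries (3.13 ± 0.78, adjusted p = 0.00298). Cr2, the complement receptor CD21, had 311, 146 and 198 in IgG tumour, against 69, 50 and 52 in sham libraries (1.86 ± 0.28, adjusted p = 2.97e-05). Cr2 was the 1 gene of this list called after therapy: it was lower in dual therapy, at 106, 108 and 81 (-1.08 ± 0.28, adjusted p = 0.0107), and in triple therapy, at 83, 118 and 73 (-1.21 ± 0.28, adjusted p = 0.00331), against IgG tumour. The dual therapy call was lost without IgG tumour replicate 1 (-0.80, adjusted p = 0.0734).

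B cell transcription factors did not move as a block: of 8 tested, 2 rose and 3 fell in IgG tumour against sham. Spib, a factor of B cells and plasmacytoid dendritic cells, had scores of 11, 7 and 10 in IgG tumour, against 0, 0 and 2 in sham libraries (2.82 ± 0.68, adjusted p = 0.00225). Ikzf3, which encodes the lymphoid factor Aiolos, rose by 4.43 ± 0.41 (adjusted p = 1.14e-07), with 56, 95 and 135 in IgG tumour against 2, 4 and 4 in sham libraries. Ebf1, which acts beside Pax5 in B cells, had 809, 1382 and 1180 in IgG tumour, against 2223, 2004 and 1992 in sham libraries (-0.92 ± 0.14, adjusted p = 2.61e-05). It was therefore abundant in sham vessels, where Pax5 was at 13 or less, and it was higher again in dual therapy (0.86 ± 0.14, adjusted p = 3.36e-04) and triple therapy (0.74 ± 0.14, adjusted p = 5.28e-04) than in IgG tumour. Bcl11a, a factor of B cells and of neurons, fell by 1.42 on the log2 scale against sham (adjusted p = 2.00e-05).

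Of 10 signalling genes of the B cell receptor, 8 rose and 0 fell against sham, as did 8 and 0 against contralateral IgG. Of all genes, 23.3% rose and 23.3% fell against sham, and 21.1% rose against contralateral IgG. The kinase gene Syk had scores of 324, 453 and 490 in IgG tumour, against 78, 100 and 82 in sham libraries, and the phosphatase gene Ptpn6 had 467, 399 and 471 against 49, 65 and 40. These genes are also used by T cells and myeloid cells. The B cell kinase Blk was too low to test.

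Of 14 plasma cell genes tested, 9 rose and 0 fell in IgG tumour against sham, and 8 rose against contralateral IgG. The shares of all genes that rose were 23.3% and 21.1%. Slamf7, a surface protein of plasma cells and of cytotoxic lymphocytes, had 157, 214 and 329 in IgG tumour, against 10, 7 and 7 in sham libraries (4.65 ± 0.38, adjusted p = 2.36e-08). Xbp1, the factor of the secretory programme, had 1542, 1796 and 1248 in IgG tumour, against 801, 875 and 736 in sham libraries (0.91 ± 0.14, adjusted p = 2.21e-05). Against contralateral IgG, at 1205, 1401 and 1011, Xbp1 was not called (0.34 ± 0.14, adjusted p = 0.0515) and the libraries overlapped. It fell in dual therapy (-0.50 ± 0.14, adjusted p = 0.0132) and triple therapy (-0.57 ± 0.14, adjusted p = 0.00358) against IgG tumour. The Xbp1 call in dual therapy was lost without dual therapy replicate 3 (0.052), without IgG tumour replicate 2 (0.0562) and with dual therapy replicate 2 and IgG tumour replicate 2 both left out (0.0963). Cd38 and Edem1, which acts in protein quality control of the endoplasmic reticulum, also fell after both therapies, by 0.68 and 0.66 after dual therapy and by 0.72 and 0.75 after triple therapy on the log2 scale (adjusted p between 6.02e-04 and 0.00666). Xbp1, Cd38 and Edem1 had scores from 281 upwards in sham vessels, where Jchain was at 3 or less. The plasma cell receptor Tnfrsf17 was too low to test.

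Of 6 immunoglobulin constant genes tested, 5 rose in IgG tumour against sham and 4 against contralateral IgG, beside 23.3% and 21.1% of all genes. Limma called 0 in dual or triple therapy against IgG tumour or between the therapies, where it called 22.3%, 32.2% and 0.869% of all genes. At an unadjusted p below 0.05 these were 0 in dual therapy and 1 in triple therapy against IgG tumour, and 4 between triple and dual therapy, where the shares of all genes were 34.9%, 41.9% and 14.5%. Igkc, the kappa light chain constant gene, had 367, 54 and 176 in triple therapy, 47, 9 and 85 in dual therapy, 41, 32 and 164 in IgG tumour, 6, 2 and 5 in contralateral IgG, and 2, 2 and 7 in sham libraries. Its rise in IgG tumour against sham was 3.88 ± 0.78 (adjusted p = 5.10e-04), which voom did not call (0.123). Igha, the heavy chain constant gene of IgA, had 102, 31 and 39 in triple therapy and 22, 3 and 10 in dual therapy libraries (2.34 ± 0.84, adjusted p = 0.191, no overlap). Ighm, the heavy chain constant gene of IgM, rose by 1.60 ± 0.27 in IgG tumour against sham (adjusted p = 8.77e-05), with 90, 180 and 178 against 36, 48 and 57. The libraries with the most Jchain, triple therapy replicates 1 and 3 and IgG tumour replicate 3, were also those with the most Igkc.

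**Figure D3:**
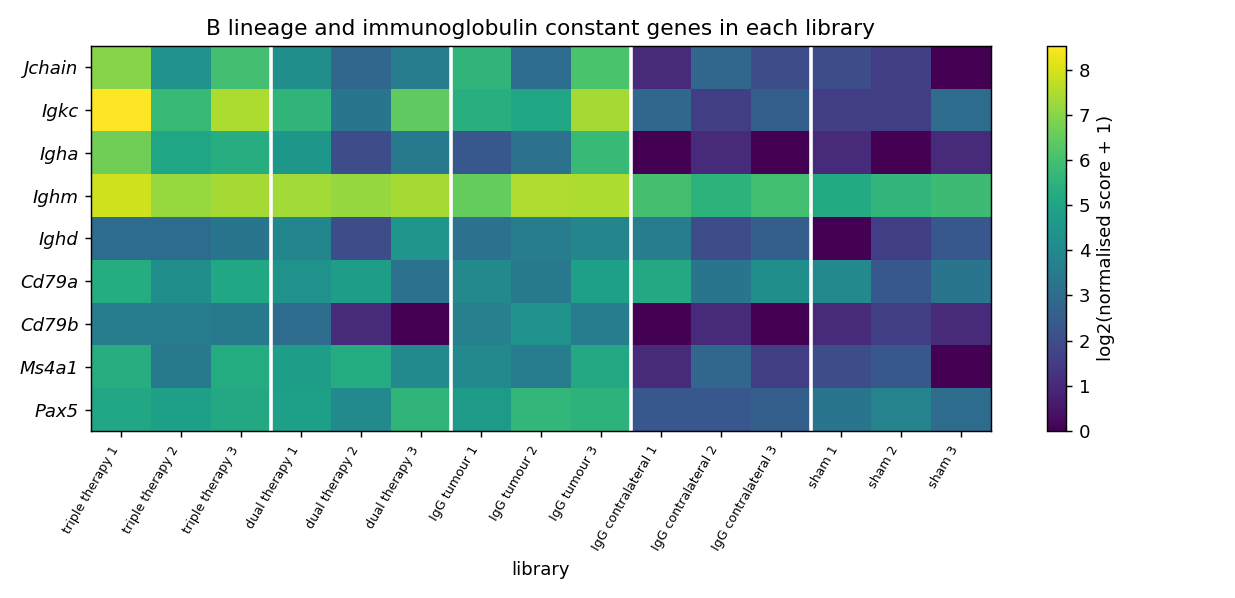
Colour gives log2(score + 1) of Jchain, 4 immunoglobulin constant genes and 4 B cell genes (rows) in each of the 15 libraries (columns; white lines part the groups). Jchain, Igkc and Igha are brightest in triple therapy replicates 1 and 3 and IgG tumour replicate 3, while in contralateral IgG and sham libraries Igha is at a score of 1 or less, Jchain at 6 or less and Igkc at 7 or less, and Cd79a is visible in every group.

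Genes of B cell survival and attraction were mostly higher in IgG tumour than in sham vessels. Of 8 survival and activation genes tested, 7 rose and 0 fell against sham, beside 23.3% of all genes each way. Tnfsf13b, the survival cytokine BAFF, had 58, 20 and 41 in IgG tumour, against 11, 6 and 9 in sham libraries (1.98 ± 0.53, adjusted p = 0.00508), and its receptor gene Tnfrsf13c had 42, 43 and 46 against 1, 2 and 4 (3.84 ± 0.52, adjusted p = 8.55e-06). After dual therapy Tnfsf13b was lower, at 7, 11 and 18 (-1.61 ± 0.53, adjusted p = 0.0369), and after triple therapy Tnfrsf13c was lower, at 11, 27 and 10 (-1.53 ± 0.52, adjusted p = 0.0318), against IgG tumour. Both calls are fragile: the Tnfsf13b one was lost without dual therapy replicate 1 (0.123) or 2 (0.0791) or IgG tumour replicate 1 (0.166) or 3 (0.0922). The Tnfrsf13c one was lost without triple therapy replicate 1 (0.112) or 3 (0.132) or any IgG tumour library (0.0618 to 0.0815).

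Of 8 genes that attract B cells or mark lymphoid tissue, 6 rose and 0 fell against sham, beside 23.3% of all genes each way. Ccr7, a chemokine receptor of lymphocytes that home to lymph nodes, had 65, 103 and 136 in IgG tumour, against 2, 4 and 0 in sham libraries (5.31 ± 0.53, adjusted p = 2.30e-07). Glycam1, a glycoprotein of lymph node vessels, had 18, 20 and 14 in IgG tumour, against 1, 0 and 1 in sham libraries (3.52 ± 0.76, adjusted p = 9.69e-04). Cxcl13, the chemokine that binds Cxcr5, followed another course: it had 69, 15 and 35 in triple therapy, 32, 6 and 22 in dual therapy, 1, 2 and 16 in IgG tumour, 1, 0 and 3 in contralateral IgG, and 0, 6 and 0 in sham libraries. It was not called in IgG tumour against sham (1.29 ± 0.95, adjusted p = 0.28) and was higher in triple therapy than in IgG tumour (2.88 ± 0.95, adjusted p = 0.0262), though 15 in triple therapy lay below 16 in IgG tumour. That call was lost without triple therapy replicate 1 (0.122) or 3 (0.0724), IgG tumour replicate 1 (0.119) or 2 (0.0718), or the pair of dual therapy replicate 2 and IgG tumour replicate 2 (0.0594). Dual therapy against IgG tumour was not called (1.90 ± 0.95, adjusted p = 0.162).

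**Figure D4:**
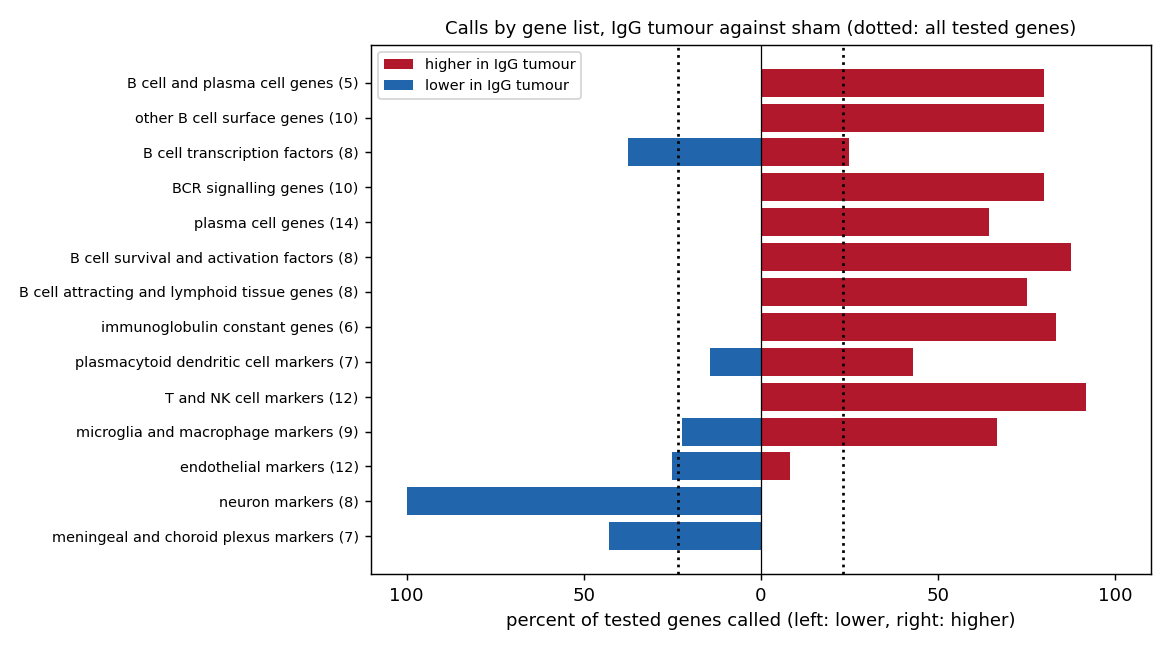
Share of the tested genes of each list called higher (right, red) or lower (left, blue) in IgG tumour against sham; the number of genes tested stands in brackets and dotted lines give the share over all genes tested, 23.3% on either side. Lists of B cell surface, receptor signalling, plasma cell and immunoglobulin genes have no gene called lower, and the T and NK cell list has the highest share called higher.

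Markers of other cells moved in the same comparisons. Of 12 T and NK cell markers, 11 rose and 0 fell in IgG tumour against sham, beside 23.3% of all genes each way. Their summed score was 563 to 1051 in triple therapy, 788 to 1167 in dual therapy and 1133 to 1330 in IgG tumour libraries. It was 77 to 166 in contralateral IgG and 65 to 109 in sham libraries. Cd3e of the T cell receptor complex alone had 98 to 123 in IgG tumour libraries. All 8 neuron markers fell against sham, as did 23.3% of all genes. Their sum was 1749 to 3382 in IgG tumour and 12540 to 16249 in sham libraries. In triple therapy 7 of these markers were higher than in IgG tumour, as were 17.2% of all genes. Of 9 microglia and macrophage markers, 6 rose and 2 fell against sham. Meningeal and choroid plexus markers summed to 28199 to 81236 in triple therapy, 17981 to 34171 in dual therapy, 16260 to 51638 in IgG tumour, 42632 to 86229 in contralateral IgG and 25037 to 27309 in sham libraries. Ttr, the transthyretin gene of the choroid plexus, made up 85.6% to 94.7% of that sum in every library and was not called against sham (0.35 ± 0.39, adjusted p = 0.488). Without Ttr the sum was 3029 to 5022 in triple therapy, 2083 to 3726 in dual therapy, 1971 to 2753 in IgG tumour, 3410 to 5473 in contralateral IgG and 3313 to 3743 in sham libraries. Of the 7 markers 0 rose in IgG tumour against sham and 3 fell: Dcn, Lum and Slc6a13, with log2 fold changes of -0.99, -1.41 and -1.5 (adjusted p between 4.99e-06 and 5.48e-04). The other markers, Ttr among them, pointed the other way without being called. Folr1, Clic6 and Kcnj13 had log2 fold changes of 0.63, 0.7 and 0.42 (adjusted p between 0.135 and 0.3), so against sham the list did not move as a block. Against contralateral IgG 4 of the 7 fell and 0 rose, where 42.5% of all genes were called in either direction. Those 4 were Dcn, Lum, Slc6a13 and Ttr, the last near the threshold (-1.01 ± 0.39, adjusted p = 0.0463, with overlapping libraries).

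Plasmacytoid dendritic cells share some genes with B cells, and of their 7 tested markers 3 rose and 1 fell against sham. Siglech, a marker of these cells and of microglia, had 94, 64 and 69 in IgG tumour, against 91, 115 and 103 in sham libraries (-0.45 ± 0.24, adjusted p = 0.127). Klk1 was at 0 in every sham and contralateral IgG library and at 3, 7 and 10 in IgG tumour, and Cox6a2 was at 7 or less in every library. Bst2, an interferon-induced surface protein, and Ly6c2, also found on monocytes, rose by 1.91 ± 0.21 (adjusted p = 8.79e-07) and 3.68 ± 0.65 (adjusted p = 1.38e-04), while Pacsin1 fell (-2.73 ± 0.24, adjusted p = 7.26e-08). Runx2 was called at the edge of the threshold (0.70 ± 0.28, adjusted p = 0.048, with overlapping libraries), and the call was lost when 1 of several libraries was left out, among them IgG tumour replicate 3 (0.39, adjusted p = 0.274), IgG tumour replicate 1 (0.0613) and each sham library (0.0513 to 0.135). Tcf4 made up 83.5% to 92.4% of the list's summed score in every library. Without Tcf4 the sum was 865 to 1072 in triple therapy, 726 to 979 in dual therapy, 794 to 1288 in IgG tumour, 618 to 735 in contralateral IgG and 786 to 1084 in sham libraries. The part of these cell types in the values of the 6 B cell and plasma cell genes was not tested.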

How the data were processed

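RNA was sequenced from brain microvessels in 15 libraries. Per the labels' protocols, RNA came from a Qiagen micro kit column treated with DNase, and 100 ng of total RNA entered a SMARTer stranded total RNA kit. Per the submitters' processing notes, the tools were STAR 2.4.0a, featureCounts 1.4.5-p1 and DESeq2, with genome build GRCm38 (mm10). The strand setting is not given in the sources used. The deposited table holds normalised scores, whole numbers that sum to 11134670 to 15799111 per library.

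Here scores were taken as log2(score + 1), genes reaching a score of 10 in 3 or more libraries were kept, and limma 3.58.1 (under R 4.3.3, mean-variance trend on) was fitted to all 15 libraries with 1 mean per group (10 residual and 8.26 prior degrees of freedom). P-values were adjusted over the 19668 genes tested, two-sided. The fit was tested on simulated data. The worth of 1 read was estimated per library, with an error of at most 0.0165 on simulated libraries, and gave approximate reads for voom and for counting intervals.

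Symbols chose the 6 genes. They and the gene lists were chosen with earlier results of these data known. From each list up to 4 genes with the smallest adjusted p against sham are named, plus Ighm, Igkc, Cxcl13, Tnfsf13b and Siglech, and the 3 genes most correlated with each of the 6; Blk, Tnfrsf17, Klk1, Cox6a2 and the named markers of other cells were added after their values were seen, as were Ighg2b and Ighg2c. Some genes that this rule names are not reported here. Exon lengths and overlaps come from GENCODE M21, which holds 27114 of the 27174 identifiers.

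Replicate numbers are shared between groups with no pairing stated, so the main fit holds no block. Alternatives were other pseudocounts, filters and scalings, no trend, quality weights, voom, fitting only the libraries compared, a replicate block, and leaving out each library.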

Additional observations from a re-analysis of the deposited data

How the results depend on the processing

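The count of the 5 genes called stayed within 1.5 times its value under every alternative run for IgG tumour against sham (4), contralateral IgG against sham (0), triple therapy against IgG tumour (0) and the F-test (4). With voom on approximate reads, IgG tumour against contralateral IgG gave 2 called genes and not 4, and triple therapy against sham gave 1 and not 3. Dual therapy against IgG tumour gave 0 and not 1 with a filter of 20 (which leaves out Cd79b), with only the libraries compared, with quality weights, and when dual therapy replicate 2 and IgG tumour replicate 2 were both left out (chosen after seeing the data). Dual therapy against sham gave 1 and not 2 with only the libraries compared, quantile normalisation or endothelial scaling. Triple therapy against sham gave 5 with only the libraries compared or quality weights. Leaving out 1 library gave 3 to 4 called genes in IgG tumour against contralateral IgG, 0 to 1 in dual therapy against IgG tumour and in triple against dual therapy, 1 to 3 in dual therapy against sham and 2 to 4 in triple therapy against sham. Apart from the values shown, the cause was not tested.

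Signs turned only for differences that were not called. Cd79a in IgG tumour against contralateral IgG was 0.14 with quality weights, 0.07 with endothelial scaling and 0.20 without both of those libraries, and -0.58 to 0.32 with 1 library left out. Cd79a in dual therapy against IgG tumour was 0.01 with a pseudocount of 5, 0.14 with quantile normalisation and -0.32 to 0.47 with 1 library left out. Cd79b in dual therapy against sham was -0.18 with voom and -0.69 to 0.81 with 1 library left out. Ms4a1 in dual therapy against IgG tumour was -0.01 with quality weights and -0.14 without both libraries. Ms4a1 in triple against dual therapy was 0.01 with a pseudocount of 5, 0.04 with quality weights, 0.10 with quantile normalisation or endothelial scaling, 0.26 without both libraries and -0.34 to 0.59 with 1 library left out. Without both libraries Jchain in triple therapy against IgG tumour was -0.07, Pax5 in dual therapy against IgG tumour 0.11 and Pax5 in triple against dual therapy -0.19. With 1 library left out these were -0.07 to 1.57 for that Jchain difference, -0.19 to 0.56 for Pax5 in triple against dual therapy, -0.36 to 0.80 for Ms4a1 in contralateral IgG against sham and -1.48 to 0.07 for Igkc in dual therapy against IgG tumour. Cd22 in triple therapy against IgG tumour was 0.05 with quantile normalisation. Ttr in IgG tumour against sham was -0.21 with quality weights, -0.04 without both libraries and -0.04 to 0.85 with 1 library left out.

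Over 30 same-numbered pairs the deviations from group means correlated at -0.13 to 0.103, with 1 pair over 0.1. For the 3 such pairs of IgG tumour and contralateral IgG the correlations were -0.055 to 0.07. Tumour and tumour-free pools of the same mice need not correlate in this way, so the check cannot decide whether same-numbered pools were paired. With a replicate block, 4 genes were called in IgG tumour against contralateral IgG and 1 in dual therapy against IgG tumour (Cd79b, adjusted p = 0.0224), as without it, and 3 rather than 2 in dual therapy against sham, Jchain being added (0.0497).

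Scaling each library to its endothelial markers gave medians of all genes between -0.169 and 0.208 on the log2 scale over the 8 comparisons, against -0.02 to 0.029 without it. It turned the split of 4147 higher and 4207 lower genes in IgG tumour against contralateral IgG into 4838 and 2486, that of 2376 and 2001 in dual therapy against IgG tumour into 944 and 2104, and that of 1080 and 833 in triple therapy against sham into 865 and 290. It left 0 genes called in triple against dual therapy (2566 at an unadjusted p below 0.05). Depth limits Mzb1, with 35 reads in all, and Cd79b in the control groups, with 1 and 3 reads.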

Other observations

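Ighg2c and Ighg2b are further immunoglobulin constant genes, chosen after their values were seen. Ighg2c, the heavy chain constant gene of IgG2c, had scores of 187, 10 and 190 in triple therapy, against 3, 4 and 5 in dual therapy libraries (3.89 ± 1.04, unadjusted p = 0.00151, adjusted p = 0.0859 in limma). Ighg2c was called without triple therapy replicate 2 (5.26, adjusted p = 0.0218) or without IgG tumour replicate 2 (0.041). Ighg2b had 157, 7 and 102 in triple therapy, against 11, 0 and 6 in dual therapy libraries (3.53 ± 1.26, adjusted p = 0.188). In IgG tumour libraries Ighg2c had 16, 4 and 88, against 5, 4 and 0 in sham libraries. Triple therapy replicate 2 was the lowest triple therapy library for Ighg2c, Ighg2b, Igkc and Jchain. It was also the lowest for Ms4a1 (39, 10 and 37) and Cd79a (38, 18 and 33). Its Pax5 (27) and Cd79b (11) were close to those of the other triple therapy libraries.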
